A study of Mus musculus with 24 samples.

Results

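The interferon-inducible GTPases described here are 10 mouse genes chosen by name: the guanylate-binding protein genes Gbp2, Gbp3, Gbp4, Gbp5, Gbp6, Gbp7, Gbp8 and Gbp9, and the immunity-related GTPase genes Igtp and Irgm1. All 10 were found, each once, among 55202 genes of the deposited expression table, and all 10 varied across tumours. They were measured by RNA sequencing of whole tumours grown from CT26.WT cells, a mouse colon carcinoma line of BALB/c origin, grafted into male mice of 2 kinds. Balb/c mice have an intact immune system. NSG mice are an immunodeficient strain that lacks mature T, B and NK cells. The study's question was how methionine restriction acts on tumours in the 2 kinds of host.

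The 4 groups were Balb/c hosts on 0.172% methionine (the restricted diet), Balb/c hosts on 0.86% methionine (the high-methionine diet), NSG hosts on 0.172% methionine and NSG hosts on 0.86% methionine, with 6 libraries in each. Diets were given for 3 to 4 weeks, the mice's age is not given, and the genotype of every sample is labelled wild-type. The hosts differ in strain background as well as in immune cells, and these cannot be told apart here. In the Balb/c group on 0.86% methionine, libraries 19 and 23, and likewise libraries 20 and 24, were far more alike than any of the other 274 pairs, so the 2 libraries of a pair were averaged and stand for 1 tumour. This left 22 tumours: 6 in Balb/c on 0.172%, 4 in Balb/c on 0.86%, 6 in NSG on 0.172% and 6 in NSG on 0.86%. Nothing in the labels says that the other libraries came from separate animals, so the tests measure the spread between these libraries. Depth ranged between 31339425 and 57162217 counts assigned to genes per library. Values are given as normalised counts recovered from the deposited log2 values, and differences are on the deposited log2 scale. That scale is variance-stabilised with a floor, which shrinks differences at low counts. They are therefore not log2 ratios of counts, least of all for genes near the floor such as Ifng. In bulk tumour RNA, fewer cells of a type and less RNA per cell cannot be told apart.

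Guanylate-binding proteins are large, dynamin-like GTPases that cells make when interferon reaches them. They gather on the vacuoles and surfaces of intracellular microbes, help to open them, and feed microbial products to inflammasomes. The immunity-related GTPases work beside them: in mice, Irgm1 and Igtp (also called Irgm3) sit on the cell's own membranes and keep the effector GTPases off them. Interferon gamma, released by T cells and NK cells, acts through its receptor and, further on, through IRF1 to switch on both families, so in tumours their transcripts are widely read as a trace of interferon gamma.

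In the mm10 annotation (GENCODE mouse release 21), Gbp2, Gbp3, Gbp5 and Gbp7 lie together on the plus strand of chromosome 3, between chr3:142493978-142522344 (Gbp5) and chr3:142620602-142638008 (Gbp2), with Gbp7 at chr3:142530342-142550149 and Gbp3 at chr3:142560026-142573209. Gbp4 (chr5:105115767-105139586), Gbp6 (chr5:105270702-105293698), Gbp8 (chr5:105014150-105139540) and Gbp9 (chr5:105077630-105139539) lie together on the minus strand of chromosome 5. Igtp (chr11:58199556-58207591, plus strand) and Irgm1 (chr11:48861968-48871683, minus strand) are on chromosome 11. The annotated Gbp4, Gbp8 and Gbp9 overlap on the same strand, and Igtp overlaps Irgm2. Reads of 75 bases can also fit near-identical copies: 67.3% of the 75-base words of Gbp6 transcripts also occur in transcripts of another gene, mostly Gm43302 and Gbp10, against 11.3% for Gbp7, 8.04% for Gbp8, 7.8% for Igtp and 0 to 3.61% for the other 6 members. How reads in shared stretches were counted is not given. The values of Gbp6 may therefore miss such reads or include reads of another gene.

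The promoter sequences are shown because the same short element recurs in them. The RefSeq promoter table (GRCm38.p6) holds 6 of the 10 genes: Gbp2, Gbp3, Gbp5, Gbp7, Igtp and Irgm1. The interferon-stimulated response element, bound by IRF factors, was searched as GAAANNGAAA, and the gamma-activated site as TTCNNNGAA, on both strands of the 250 bases before each start. They have 7 promoters there, since Gbp3 has 2 starts. The first element was found in 6 of the 7, 1 for each gene, against 978 of 32851 promoters in the table (2.98%); the other Gbp3 start held neither element. The second was found in 3 of the 7, those of Gbp5, Gbp7 and Igtp, against 2306 of 32851 (7.02%). Below are 30 bases around the element nearest to each start, 5′ to 3′ on the gene's strand, with the element in capitals. In Gbp3 and Irgm1, 2 overlapping matches are both in capitals.
Gbp2, chr3:142620594-142620623: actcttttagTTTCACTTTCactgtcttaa
Gbp3, chr3:142559995-142560024: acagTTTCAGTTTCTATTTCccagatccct
Gbp5, chr3:142496759-142496788: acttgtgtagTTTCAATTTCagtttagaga
Gbp7, chr3:142530273-142530302: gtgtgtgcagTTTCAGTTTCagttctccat
Igtp, chr11:58199512-58199541: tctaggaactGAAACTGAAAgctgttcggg
Irgm1, chr11:48871425-48871454: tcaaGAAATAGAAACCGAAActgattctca
The first base of the element lay at -59 from the RefSeq start in Gbp2, -39 in Gbp3, -53 in Gbp7, -34 in Igtp and -24 in Irgm1, and farther off, at -165, in Gbp5. The Gbp genes of chromosome 3 hold it on the strand opposite to the gene, and Igtp and Irgm1 hold it on the gene's strand. RefSeq and GENCODE differ in where some of these genes start. In Gbp2, Gbp5 and Irgm1 the element lies inside the gene's GENCODE span given above.

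Gbp7 and Igtp held both elements, and no annotated exon lay in the 250 bases before their starts. These 250 bases are printed whole, with both elements in capitals; in Igtp the gamma-activated site stands just before the response element.
Gbp7, chr3:142530086-142530335: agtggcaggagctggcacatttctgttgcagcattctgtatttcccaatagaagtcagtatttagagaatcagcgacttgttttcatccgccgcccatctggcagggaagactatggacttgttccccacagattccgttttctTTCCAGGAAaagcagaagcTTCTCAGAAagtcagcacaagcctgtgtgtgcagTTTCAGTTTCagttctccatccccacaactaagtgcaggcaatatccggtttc
Igtp, chr11:58199306-58199555: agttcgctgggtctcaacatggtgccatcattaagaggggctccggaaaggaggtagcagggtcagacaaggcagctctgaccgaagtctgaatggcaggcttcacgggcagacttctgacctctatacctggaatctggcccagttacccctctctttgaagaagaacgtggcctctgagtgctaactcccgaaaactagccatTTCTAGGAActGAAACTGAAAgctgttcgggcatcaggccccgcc
A match describes the letters only and was not tested for binding or for any part in the values below.

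The 10 genes were measured at very different levels. Per kilobase of annotated exon, Gbp2 was the most abundant in every group, with 1997 ± 1016 normalised counts per kilobase in Balb/c tumours on 0.172%, 2435 ± 1630 in Balb/c tumours on 0.86%, 764 ± 209 in NSG tumours on 0.172% and 599 ± 55.9 in NSG tumours on 0.86% (SD, n = 6, 4, 6 and 6). Gbp8 was the least abundant, with 70.7 ± 41.0, 87.8 ± 41.4, 14.1 ± 6.34 and 15.2 ± 3.17 normalised counts per kilobase in the same order of groups. The level was therefore well above 0 in NSG tumours for each gene. In NSG tumours on 0.86% the order per kilobase was Gbp2, Gbp3 (440), Igtp (375), Irgm1 (295), Gbp7 (236), Gbp9 (137), Gbp4 (51.0), Gbp5 (41.9), Gbp6 (34.1) and Gbp8. In Balb/c tumours on 0.86% Gbp4 (396 ± 249) stood above Gbp9 (236 ± 51.7), and the first places were held by Gbp2, Igtp (1299 ± 917), Gbp3 (1072 ± 658) and Irgm1 (640 ± 352). In Balb/c tumours the SDs of neighbours in this order overlap. The genes were measured in the same tumours and vary together, so overlap or distance of these SDs cannot decide the order. The order within single tumours was not tested. In NSG tumours on 0.86% the SDs of neighbours were apart between Gbp7 and Gbp9, Gbp9 and Gbp4, and Gbp6 and Gbp8, and met or overlapped elsewhere.

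**Figure D1:**
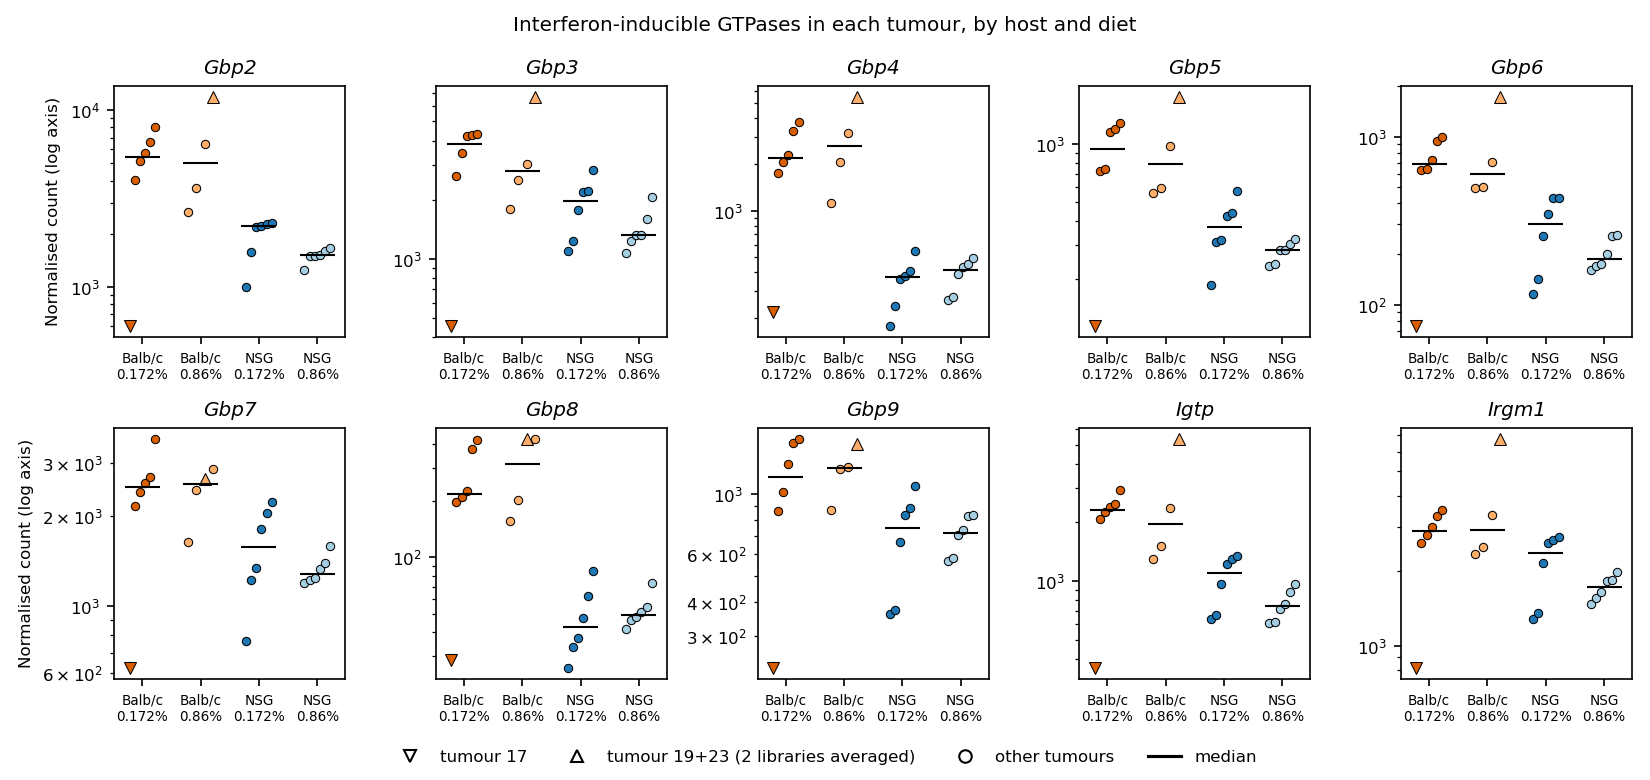
Normalised counts (log axis) of each of the 10 genes in each of 22 tumours, by host and dietary methionine; each point is a tumour and each bar a group median. Tumour 17 (downward triangle, Balb/c on 0.172%) lies below every other tumour for 8 of the 10 genes, and tumour 19+23 (upward triangle, Balb/c on 0.86%) is the highest for 7.

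The host comparison asked how the same graft differs between immunocompetent and immunodeficient mice. On 0.86% methionine every Balb/c tumour was above every NSG tumour for 9 of the 10 genes, against 2.75% of all 38019 genes. Gbp4, a Gbp of the chromosome 5 cluster, showed the widest gap. It had 5457, 1126, 2077 and 3225 normalised counts in Balb/c tumours on 0.86%, against 275, 389, 491, 262, 448 and 429 in NSG tumours on 0.86%. The lowest Balb/c tumour held more than the highest NSG tumour. On the log2 scale the host difference of Gbp4 was 2.67 ± 0.58 (SE; limma adjusted p = 0.0143).

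Gbp8, its neighbour, had 425, 157, 202 and 425 normalised counts in Balb/c tumours on 0.86%, against 41.5, 48.3, 72.8, 50.9, 46.4 and 54.6 in NSG tumours on 0.86%. The groups did not overlap, and the difference was 1.92 ± 0.41 (limma adjusted p = 0.0121). These were the 2 of 10 genes past an adjusted p of 0.05 on this diet. Of all 38019 genes tested, 2.05% were called higher in Balb/c and 0.484% lower. The share is not a stable one: it was 8 of 10 without tumour 17, a tumour of the other diet that enters the shared estimate of spread (2.36% of all genes were then called higher), and 0 of 10 without tumour 19+23 (1.15% of all genes) or without tumour 22 (1.33%).

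Gbp2, an isoprenylated Gbp that is recruited to pathogen vacuoles, had 11797, 2658, 3639 and 6410 normalised counts in Balb/c tumours on 0.86%, against 1254, 1490, 1590, 1526, 1671 and 1506 in NSG tumours on 0.86%. All 4 Balb/c tumours were above all 6 NSG tumours, with a log2 difference of 1.77 ± 0.54 (limma adjusted p = 0.103, over 0.05; range over the alternatives 0.00234 to 0.396). Gbp5, known in mice for a part in inflammasome assembly, had 1739, 560, 589 and 981 normalised counts in Balb/c tumours on 0.86%, against 235, 283, 322, 285, 304 and 239 in NSG tumours on 0.86%. These groups did not overlap either, and the log2 difference was 1.55 ± 0.48 (limma adjusted p = 0.108; 0.00204 to 0.403 over the alternatives).

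Igtp, which protects mice against Toxoplasma, had 5319, 1295, 1517 and 2380 normalised counts in Balb/c tumours on 0.86%, against 716, 608, 879, 765, 966 and 618 in NSG tumours on 0.86%. Irgm1, known for resistance to mycobacteria and for a link to autophagy, had 6715, 2331, 2496 and 3334 in Balb/c tumours on 0.86%, against 1646, 1554, 1830, 1814, 1976 and 1466 in NSG tumours on 0.86%. Neither gene's groups overlapped, and the log2 differences were 1.54 ± 0.47 for Igtp and 0.97 ± 0.35 for Irgm1 (limma adjusted p = 0.103 and 0.2). Gbp3 was the one gene with overlap: its Balb/c tumours had 6627, 2524, 1796 and 3054 normalised counts, and the highest NSG tumour had 2065. Over the 10 genes the median log2 difference was 1.54, with a range of 0.75 (Gbp9) to 2.67 (Gbp4), against a median of 0 over all genes tested.

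On 0.172% methionine the Balb/c group was split by 1 tumour. Gbp4 had 3803, 2076, 1771, 2297, 219 and 3313 normalised counts in Balb/c tumours on 0.172%, against 549, 240, 378, 178, 359 and 408 in NSG tumours on 0.172%. Of the 6 Balb/c tumours, 5 were above every NSG tumour, and tumour 17, at 219, was within the NSG range. For Igtp the Balb/c tumours on 0.172% had 2914, 2088, 2384, 2246, 358 and 2477 normalised counts, against 1340, 639, 959, 665, 1300 and 1228 in NSG tumours on 0.172%. Here tumour 17 was below every NSG tumour.

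The host difference on 0.172% was 2.26 ± 0.52 for Gbp4 (limma adjusted p = 0.0246) and 1.61 ± 0.37 for Gbp8 (limma adjusted p = 0.0227), and these were again the 2 of 10 genes called; 1.44% of all genes were called higher and 0.652% lower. The other 8 log2 differences were all positive, between 0.26 (Irgm1) and 1.09 (Gbp2), and the median over the 10 genes was 0.88. Without tumour 17 the call was made for 7 of the 10 genes, against 1.89% of all genes, with a median log2 difference of 1.33. It was made for none without Balb/c tumour 13 or 18 or NSG tumour 2 or 4 (0.939% to 1.38% of all genes), and for 1 without Balb/c tumour 14 or 16 or NSG tumour 3 (1.05% to 1.33%). No gene of the 10 had every Balb/c tumour above every NSG tumour on 0.172% with all 22 tumours, against 1.04% of all 38019 genes. Without tumour 17 there were 6 (Gbp2, Gbp4, Gbp5, Gbp6, Gbp8 and Igtp), against 1.95% of all genes.

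Averaged over both diets, 6 of the 10 genes were higher in Balb/c hosts, and 3.72% of all genes were called higher and 1.79% lower. The called genes were Gbp4 (log2 difference 2.46 ± 0.39, limma adjusted p = 0.000409), Gbp8 (1.77 ± 0.28, adjusted p = 0.000303), Gbp2 (1.43 ± 0.36, adjusted p = 0.0217), Gbp6 (1.36 ± 0.35, adjusted p = 0.0266), Gbp5 (1.24 ± 0.32, adjusted p = 0.0254) and Igtp (1.18 ± 0.31, adjusted p = 0.0304). Gbp3 (0.84 ± 0.34, adjusted p = 0.199), Gbp7 (0.65 ± 0.24, adjusted p = 0.139), Gbp9 (0.63 ± 0.27, adjusted p = 0.237) and Irgm1 (0.61 ± 0.24, adjusted p = 0.169) were positive and did not pass. In counts, Gbp4 averaged 2536 ± 1477 in Balb/c tumours and 367 ± 110 in NSG tumours, while Irgm1 averaged 3087 ± 1486 in Balb/c tumours and 1920 ± 509 in NSG tumours (SD, n = 10 and 12). Without tumour 17 the call was made for 10 of 10 genes, against 4.06% of all genes. Without tumour 19+23 it was made for 2 of 10, against 2.99% of all genes.

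**Figure D2:**
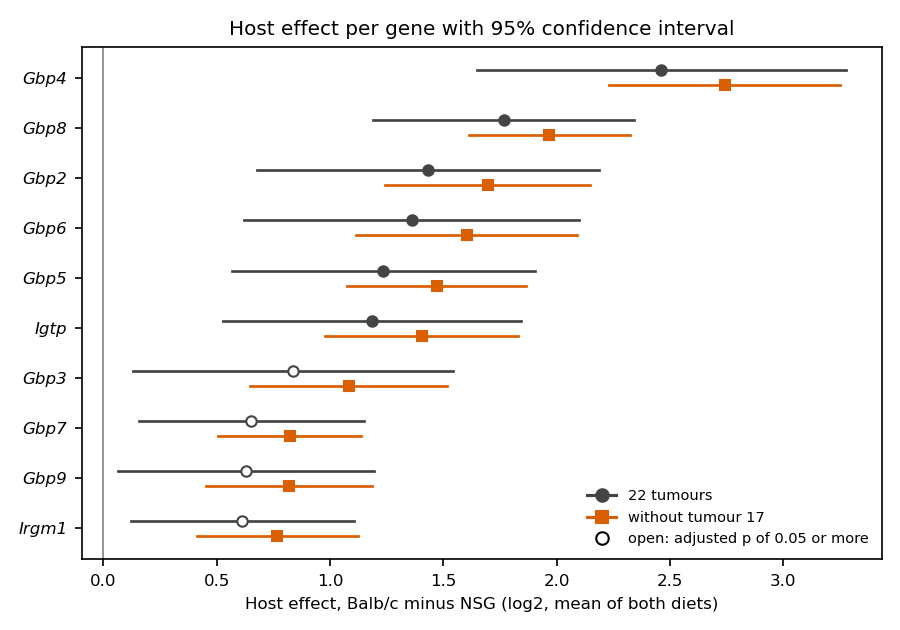
Host effect of each gene (Balb/c minus NSG, log2, mean of both diets) with its 95% confidence interval, from 22 tumours (circles) and from 21 tumours without tumour 17 (squares); filled symbols have an adjusted p under 0.05. All 20 estimates are positive, and Gbp4 and Gbp8 lie farthest from 0 in both fits.

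The size of the host difference varied from gene to gene, and the ratio of 2 genes within the same tumour shows this without any scaling between libraries. The log2 ratio of Gbp4 to Gbp9 averaged 0.95 ± 0.70 in Balb/c tumours and -0.94 ± 0.19 in NSG tumours (SD, n = 10 and 12). It ran between -0.15 and 1.84 in Balb/c tumours and between -1.22 and -0.58 in NSG tumours, with no overlap. Tumour 17, low in both genes, had a ratio of -0.07, above every NSG tumour.

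The ratio of Gbp8 to Gbp9 was free of overlap too, at -2.23 ± 0.56 in Balb/c tumours and -3.80 ± 0.30 in NSG tumours, with tumour 17 at -3.01. So were the ratios of Gbp4 to Gbp3 and of Gbp4 to Gbp2, and these 4 were all such cases among 45 pairs of genes. By contrast the log2 ratio of Gbp6 to Gbp2 was -2.87 ± 0.23 in Balb/c tumours and -2.88 ± 0.50 in NSG tumours, and that of Gbp7 to Gbp9 was 1.09 ± 0.22 in Balb/c tumours and 1.06 ± 0.31 in NSG tumours. Between the immunity-related GTPases, the ratio of Igtp to Irgm1 was -0.52 ± 0.33 in Balb/c tumours and -1.12 ± 0.12 in NSG tumours, with the lowest Balb/c value, -1.19 in tumour 17, inside the NSG range. These ratios are given as descriptions, since the pairs share genes and were looked at after the host effects. Gbp4, Gbp8 and Gbp9 overlap in the annotation, and how reads in their shared stretches were assigned was not tested.

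**Figure D3:**
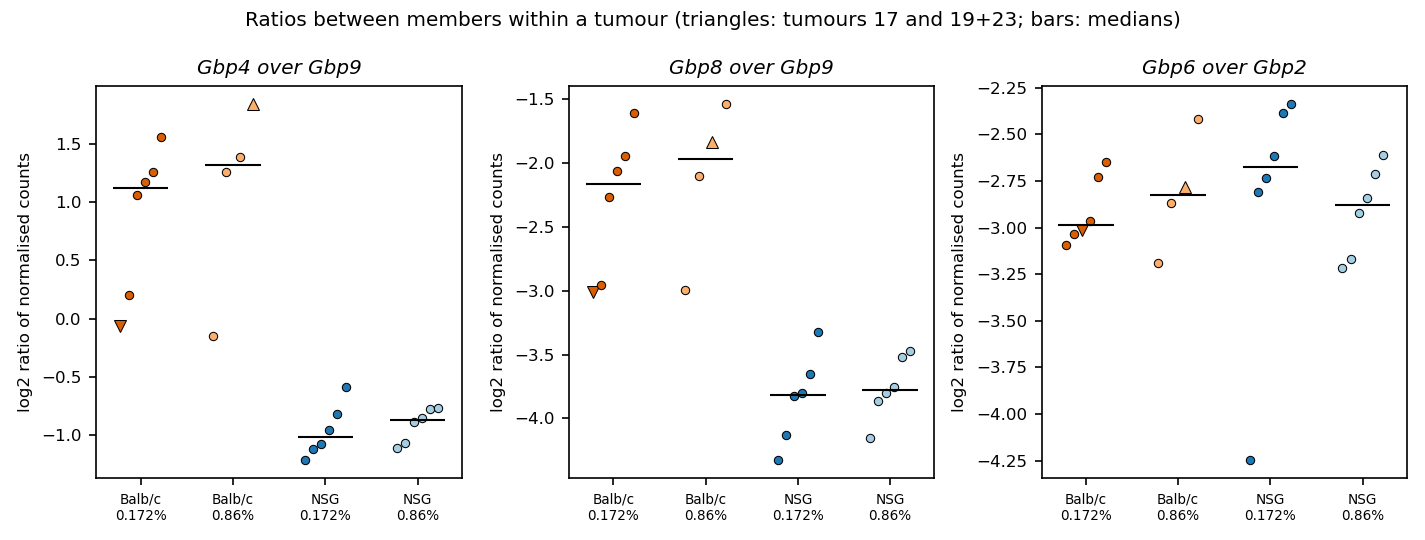
Log2 ratio of normalised counts of 2 genes within each tumour, by host and dietary methionine; points are tumours, bars are group medians, and triangles are tumours 17 and 19+23. Gbp4 over Gbp9 and Gbp8 over Gbp9 separate all Balb/c tumours from all NSG tumours, while Gbp6 over Gbp2 overlaps between hosts.

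The diet comparison asked what methionine restriction did within a host. None of the 10 genes was called in either host. In NSG hosts 0% of all genes were called higher and 0.00526% lower (2554 of 38019 genes had an unadjusted p under 0.05, and none of the 10 GTPases was among them). In Balb/c hosts 0% were called higher and 0.00263% lower (2843 genes had an unadjusted p under 0.05, again none of the 10).

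In Balb/c hosts the log2 difference between 0.172% and 0.86% was negative for all 10 genes, between -0.56 (Gbp4) and -0.17 (Gbp7), with a median of -0.36; for Gbp4 the 95% confidence interval was -1.77 to 0.66. Without tumour 17, 8 of the 10 were positive and the median was 0.08, with Irgm1 (-0.16) and Gbp8 (-0.02) still negative. Without tumour 19+23, 4 of the 10 were positive: Gbp2, Gbp3, Gbp5 and Igtp, at 0.005 to 0.14. The direction thus depended on these 2 tumours. In NSG hosts 7 of 10 were positive, between -0.15 (Gbp4) and 0.37 (Igtp), with a median of 0.27. For Igtp the NSG tumours had 1340, 639, 959, 665, 1300 and 1228 normalised counts on 0.172%, against 716, 608, 879, 765, 966 and 618 on 0.86%, and the ranges overlap (log2 difference 0.37, 95% confidence interval -0.50 to 1.25, limma adjusted p = 0.869). The spread within NSG hosts was wider on 0.172%: the mean log2 value of the 10 genes had an SD of 0.49 on 0.172%, against 0.17 on 0.86%.

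The diet effect in Balb/c hosts minus that in NSG hosts was called for none of the 10 genes, and of all genes 0% were called higher and 0% lower (2447 had an unadjusted p under 0.05; the smallest adjusted p of any gene was 0.0987). The 10 differences ran between -0.76 (Gbp6) and -0.23 (Gbp9), with limma adjusted p values of 0.821 to 0.924. For Igtp the interval of this difference was -2.02 to 0.60, which is wide beside the differences themselves. A p that misses the threshold does not show that the diets act alike in the 2 hosts.

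Other genes of interferon-inducible GTPase families were followed as a list of 18 genes. The list includes Mx1, Mx2 and Gvin1, which are neither guanylate-binding proteins nor immunity-related GTPases. Averaged over both diets, 8 of 18 were higher in Balb/c hosts and none lower (median log2 difference 0.84; 12 of 18 higher without tumour 17). Gbp2b, the mouse Gbp1, averaged 5127 ± 3193 normalised counts in Balb/c tumours and 1071 ± 302 in NSG tumours (log2 difference 1.96, limma adjusted p = 0.00408). Iigp1, an effector immunity-related GTPase that disrupts Toxoplasma vacuoles, averaged 2095 ± 1211 in Balb/c tumours and 533 ± 202 in NSG tumours (1.72, limma adjusted p = 0.0166). Gbp11 (1.52), Gm12250 (1.52), Gbp10 (1.21), F830016B08Rik (1.03) and the effector genes Tgtp1 (1.70) and Tgtp2 (1.64) were also called. The dynamin-like antiviral genes Mx1 (-0.18, limma adjusted p = 0.781) and Mx2 (-0.15, adjusted p = 0.794) did not pass. Their differences were positive on 0.86% (Mx1 0.27, Mx2 0.18) and negative on 0.172% (Mx1 -0.62, Mx2 -0.47). Tumour 17, on 0.172%, was the lowest of all tumours for both. Irgm2, the third of the protective immunity-related GTPases, had 0.79 (limma adjusted p = 0.108) and did not pass either.

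Among 16 genes of the interferon gamma pathway, 5 were higher in Balb/c hosts and none lower, averaged over both diets (median 0.22; 8 higher without tumour 17). Ifng, the ligand, averaged 7.76 ± 6.43 normalised counts in Balb/c tumours, with a range of 0 to 20.2, and was at 0 counts in all 12 NSG tumours (log2 difference 0.83, limma adjusted p = 0.000125). The receptor genes Ifngr1 (0.17, limma adjusted p = 0.361) and Ifngr2 (0.14, adjusted p = 0.411) did not pass. Irf1, a transcription factor gene, averaged 3041 ± 1355 in Balb/c tumours and 1581 ± 236 in NSG tumours (0.86, limma adjusted p = 0.00891), and the related Irf8 differed by 1.24 (adjusted p = 0.000336). Ptpn6, a phosphatase of immune cells, was called too (0.68, adjusted p = 0.000199).

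Upstream of the ligand, 6 of 11 inducers of interferon gamma were higher in Balb/c hosts, among them Tbx21, which drives Ifng in T and NK cells (1.56, limma adjusted p = 3.76e-08), and the receptor gene Il18r1 (1.11, adjusted p = 1.97e-08). Downstream, 11 of 16 other interferon gamma targets were higher and none lower (median 0.80). The chemokine gene Cxcl9 had the largest difference of these: 1348 ± 1223 normalised counts in Balb/c tumours and 35.3 ± 17.2 in NSG tumours (3.87, limma adjusted p = 8.64e-05). Cxcl11 (1.93), Ido1 (1.34), Psmb9 (1.23) and Psmb8 (1.05) were called as well.

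The type I interferon targets, 17 genes such as Isg15 and Ifit1, were not called in any comparison. On 0.86% all 17 had a positive host difference (median 0.26). On 0.172% all 17 had a negative one (median -0.31), and without tumour 17 this median was -0.03, with 5 positive. Isg15 averaged 1430 ± 834 normalised counts in Balb/c tumours and 1427 ± 463 in NSG tumours. Among 15 genes that load GTPases onto membranes or act in the cell death they trigger, 1 was higher, the inflammasome gene Nlrp3 (0.85, limma adjusted p = 0.00295); the ATG8-conjugation genes, which place GTPases on vacuoles, were not called.

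**Figure D4:**
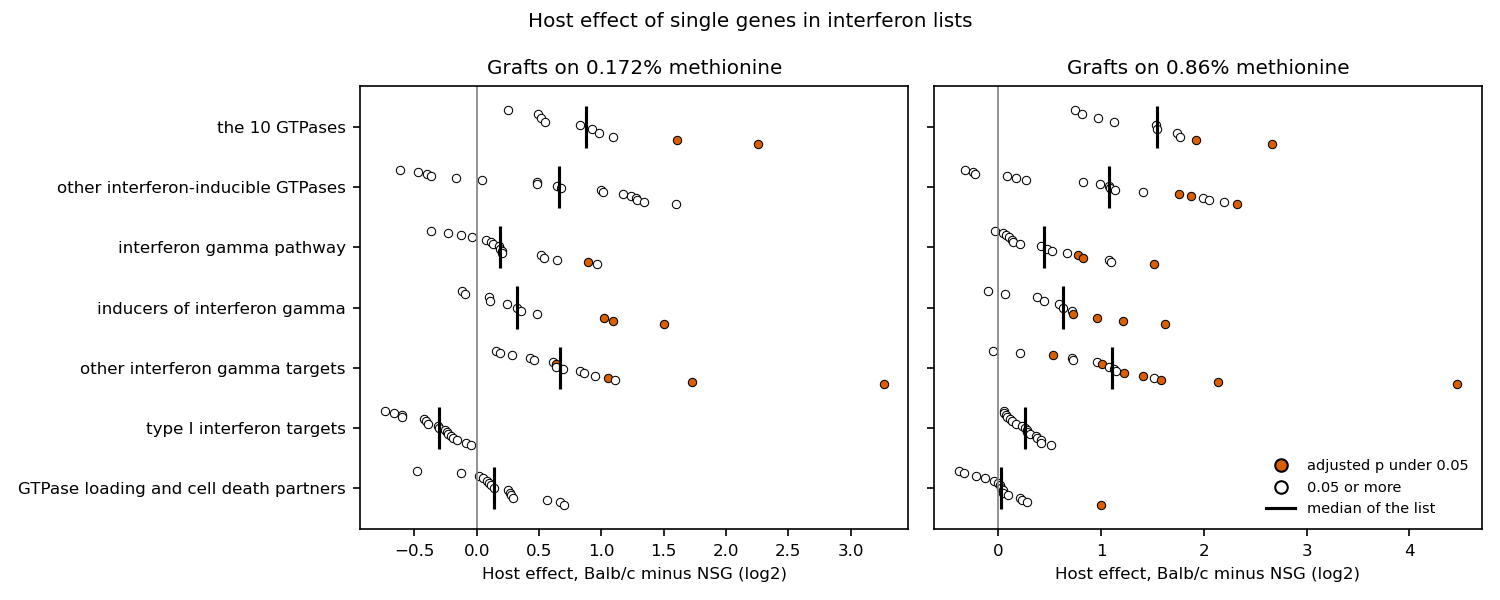
Host effect (Balb/c minus NSG, log2) of every gene in 7 lists on 0.172% and on 0.86% methionine; each point is a gene, orange points have an adjusted p under 0.05, and bars are list medians. The 10 GTPases and the other interferon gamma targets lie to the right of 0 (1 target is below 0 on 0.86%), while the type I interferon targets lie left of 0 on 0.172% and right of 0 on 0.86%, with none called.

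The markers of immune cells moved with the host in the same tumours. All 7 T cell markers and all 5 NK cell markers were higher in Balb/c hosts on each diet. The summed T cell markers ran between 142 and 645 normalised counts in Balb/c tumours on 0.172%, 232 and 518 in Balb/c tumours on 0.86%, 20.3 and 153 in NSG tumours on 0.172%, and 38.0 and 88.8 in NSG tumours on 0.86%. In tumour 17, which had the lowest Balb/c sum, Lck made up 116 of the 142, and each other T cell marker 1.05 to 9.47. The NK marker gene Ncr1 was at 0 in all NSG tumours, and Cd3d and Cd3e were at 0 in NSG tumours on 0.86%. Averaged over both diets, 4 of 8 macrophage markers, 5 of 6 endothelial markers, 1 of 5 dendritic cell markers and 1 of 5 epithelial markers were also higher, and none of 4 B cell, 5 fibroblast or 4 red blood cell markers. The part of any of these cells in the GTPase levels was not tested. Of the epithelial markers that would fit the labelled colon carcinoma, Epcam had 0 to 77.0 normalised counts per tumour, Krt19 0 to 357, Cdh1 13.8 to 132, Krt18 372 to 2140 and Krt8 56.5 to 29746. The 2 keratins Krt8 and Krt18 were thus detected in every tumour, as was Cdh1 at a low level.

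Tumour 17 was low in the GTPases and in other interferon targets. It was the lowest of 22 tumours for 8 of the 10 genes and the second lowest for Gbp4 and Gbp8, whereas 8.88% of the 11510 well-expressed genes (mean log2 value of at least 8) were lowest there. This was not particular to the 10 genes: 16 of 17 type I interferon targets and 13 of the 18 other interferon-inducible GTPases were also lowest there, but 5 of 16 other interferon gamma targets. Its 10 genes summed to 3523 normalised counts, while the rest of its group held between 19174 and 28356. In the same tumour Ifng was at 0 and Irf1 (1059 normalised counts) was the lowest of 22. Its T cell (142), NK (48.4), B cell (26.3) and endothelial (3319) marker sums were the lowest of the Balb/c tumours. The macrophage markers, at 34891, lay inside their group's range of 26148 to 58146. So did its dendritic cell, fibroblast, epithelial and red blood cell marker sums inside theirs. The part of any of these in the GTPase values of tumour 17 was not tested. At the other end, tumour 19+23 was the highest for 7 of the 10 genes (16.7% of well-expressed genes were highest there), with the highest Ifng (20.2) and the highest endothelial (10953), fibroblast (178217) and red blood cell (43539) marker sums. The part of these in its values was not tested.

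The 10 genes were set against Irf1 and Ifng across tumours. Relations were computed within 1 host at a time, over both diets, since the hosts form separate clusters; 50 relations were tested by permutation, with Benjamini-Hochberg adjustment over the 50. Across 10 Balb/c tumours, Pearson's r with Irf1 was 0.74 to 0.96 (adjusted permutation p 0.0001 to 0.0405) and Spearman's rho 0.42 to 0.95 (7 of 10 past 0.05). The r values with Ifng were 0.74 to 0.93 (adjusted permutation p 0.0001 to 0.0132; rho 0.60 to 0.96, 8 past). The smallest of these is the smallest that the resamples can give after adjustment.

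Part of this rested on the 2 extreme tumours. Without tumours 17 and 19+23, r with Irf1 was 0.97 for Gbp4, 0.92 for Gbp8 and 0.90 for Gbp2, but 0.38 for Gbp3, 0.27 for Gbp7 and 0.12 for Gbp9, so for these last 3 the relation with Irf1 rested on those tumours. Without tumours 17 and 20+24, r with Ifng was 0.57 (Gbp8) to 0.95 (Gbp3). Ifng had at most 20.2 normalised counts in any tumour, so its own counting error is large.

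Across 12 NSG tumours, in which Ifng was at 0 counts, 4 of the 10 genes passed with Irf1: Gbp2 (r = 0.81, rho 0.72, adjusted permutation p = 0.00229), Gbp7 (0.77, rho 0.66, adjusted permutation p = 0.00395), Gbp4 (0.69, rho 0.48, adjusted permutation p = 0.0181) and Gbp5 (0.69, rho 0.66, adjusted permutation p = 0.0187). The lowest r was 0.37, for Gbp3 (adjusted permutation p = 0.231). Without NSG tumours 4 and 10, r with Irf1 was 0.27 for Gbp4 and 0.56 to 0.73 for the other 3. Whether a relation differs between hosts was not tested.

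**Figure D5:**
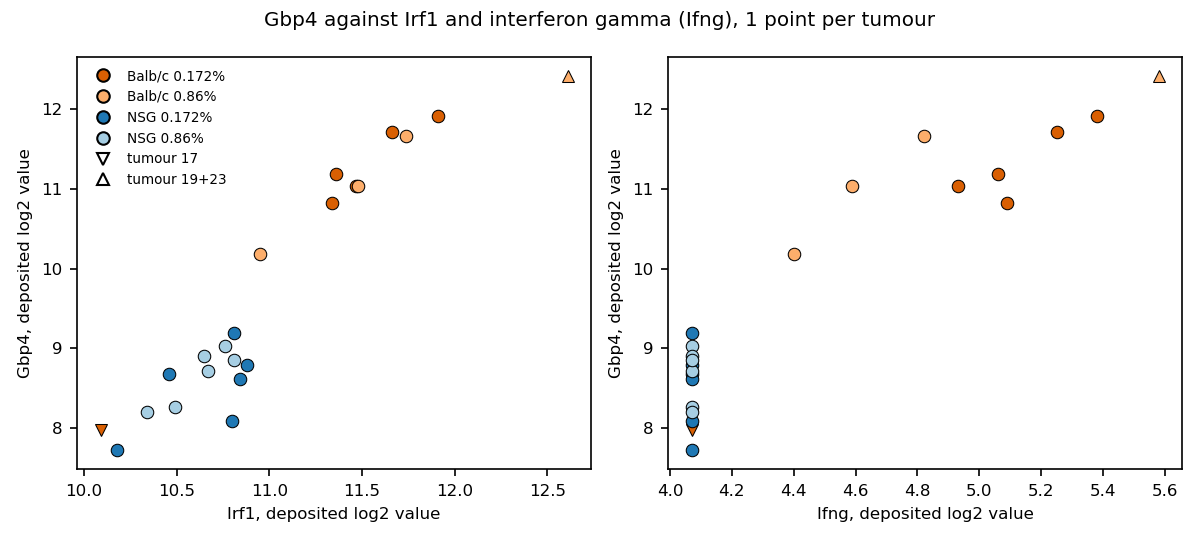
Deposited log2 value of Gbp4 against that of Irf1 and Ifng, 1 point per tumour, coloured by host and dietary methionine; triangles are tumours 17 and 19+23. Balb/c tumours other than tumour 17 lie above all NSG tumours in Gbp4, and all NSG tumours share the lowest Ifng value, that of 0 counts.

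Among 11501 other well-expressed genes, the 8 whose level followed the mean of the 10 GTPases most closely across 22 tumours, after each group's mean was taken off, were Irgm2 (r = 0.977), Iigp1 (0.973), Tgtp1 (0.969), Tgtp2 (0.967), Gbp10 (0.965), Parp9 (0.952), Ifi47 (0.946) and Gm4951 (0.943). Of these, 7 belong to the same GTPase families, and Parp9 is an ADP-ribosyltransferase gene. Without tumour 17 the values were 0.940 for Irgm2, 0.919 for Iigp1 and Ifi47, and 0.826 for Gm4951, the lowest of the 8. Gm4951 then ranked 16 among the 11501 genes, while the others listed stayed within the first 8. Irgm2 shares 75-base words with Igtp, and Gbp10 with Gbp6 and Gbp8; the part of this in their likeness was not tested. Among the 45 pairs of the 10 GTPases themselves r ran between 0.78 and 0.98 (median 0.90), and without tumour 17 between 0.42 and 0.96 (median 0.75).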

How the data were processed

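Tumour RNA was sequenced as single-end reads. Per the labels' protocols the libraries were poly(A)-enriched with a TruSeq kit and read at 75 bases, while the series' design text names a stranded ribosomal-depletion kit and 76 bases; strand use in counting is not stated. Per the submitters' processing notes, STAR, featureCounts and DESeq2 were used with mm10, without versions. The authors deposited 1 table of log2 values on a variance-stabilised scale with a floor of 4.0711 (51.7% of values). Inverting that scale gave whole counts per gene for 100% of 640012 values above the floor (tolerance 0.01); 26 lines whose names had become dates were left out. Depth limits low genes such as Ifng most.

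The deposited log2 values were tested with limma 3.58.1 (R 4.3.3; moderated, trend, robust), 1 mean per group, on 38019 genes that vary, two-sided, with Benjamini-Hochberg adjustment over all of them and a threshold of 0.05. The step was tested on simulated data first. Correlations used 100000 permutations; relations with 1 further gene belong to the same family of 50 and are not reported here. The 10 genes, the gene lists and the tests were chosen with earlier results of these data known. The text names all 10 genes, genes of the fixed lists, and the 8 genes most like the 10 with a mean log2 value of at least 8. Alternatives changed the filter, scale, normalisation, weights, variance model, fit and treatment of alike libraries, and left out each tumour.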

Additional observations from a re-analysis of the deposited data

Results flagged for a closer look

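In the Balb/c group on 0.172% methionine, tumour 17 was far below the other 5 tumours for all 10 GTPases. The gap between it and the next tumour, as a share of the group's whole range on the log2 scale, was 0.837 for Igtp, 0.806 for Gbp6, 0.789 for Irgm1, 0.779 for Gbp3, 0.751 for Gbp5, 0.729 for Gbp2, 0.723 for Gbp4, 0.703 for Gbp7, 0.678 for Gbp9 and 0.671 for Gbp8, each past Dixon's 95% critical value of 0.625 for 6 samples. Of 40 groups tested (10 genes in 4 groups) these 10 were past it, all by the same tumour; chance flags about 1 in 20 groups, and the 10 genes vary together, so the 10 are not independent.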

How the results depend on the processing

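The host difference was positive for every one of the 10 genes in each of its comparisons under every alternative run; the calls were less stable. On 0.86% methionine, 2 of the 10 genes were called, beside 779 of all genes called higher. With genes of mean log2 value of at least 6 it was 5 (586 of all genes). Library weights gave 6 (1301), only the groups of the contrast 8 (739), and all 24 libraries as separate tumours 6 (1258). Without tumours 17 and 19+23 together, an alternative chosen after seeing the data, it was 6 (587). Leaving out 1 tumour gave 0 to 8 (437 to 899). On 0.172%, 2 were called, beside 548 of all genes called higher. It was 0 with only the groups of the contrast (476 of all genes) and 0 with a voom fit of the recovered counts (565). It was 8 without tumours 17 and 19+23 (896), and 0 to 7 when 1 tumour was left out (357 to 717). Averaged over diets, 6 were called, beside 1416 of all genes called higher. It was 10 without tumours 17 and 19+23 (1335 of all genes), and 2 to 10 when 1 tumour was left out (1138 to 1568). The diet comparisons called none of the 10 under any alternative.

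Over all genes, the host comparison called 963 on 0.86% (1673 with library weights, 1824 with 24 libraries, 527 to 1146 leaving out 1 tumour) and 796 on 0.172% (1394 with weights, 1338 without tumours 17 and 19+23, 512 to 1123 leaving out 1). The diet effect in NSG hosts called 2 genes; it called 0 with the filter, with log2(normalised count + 1), with median centring, with quantile normalisation, with only the groups of the contrast or with the second library of each pair, 1 with log2(normalised count + 10) or 24 libraries, and 0 to 2 leaving out 1 tumour. That in Balb/c hosts called 1; it called 0 with the filter, with only the groups of the contrast, with voom or with 1 library of each pair, 2 with quantile normalisation or without tumours 17 and 19+23, 4 with weights, 112 with 24 libraries and 1 to 122 leaving out 1 tumour. The difference of the diet effects called 0; it called 1 with the filter, with log2(normalised count + 1), with weights, with plain eBayes or without tumours 17 and 19+23, 2 with voom or 24 libraries, and 0 to 3 leaving out 1 tumour.

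The diet effect in Balb/c hosts, negative for all 10 genes, turned positive without tumours 17 and 19+23: 0.54 for Gbp2, 0.62 for Gbp3, 0.37 for Gbp4, 0.51 for Gbp5, 0.45 for Gbp6, 0.23 for Gbp7, 0.17 for Gbp8, 0.15 for Gbp9, 0.52 for Igtp and 0.17 for Irgm1. With library weights it was 0.18 for Gbp3 and 0.008 for Gbp5. Leaving out 1 tumour gave -0.71 to 0.14 for Gbp2, -0.49 to 0.26 for Gbp3, -0.94 to 0.003 for Gbp4, -0.49 to 0.19 for Gbp5, -0.61 to 0.059 for Gbp6, -0.34 to 0.17 for Gbp7, -0.49 to 0.036 for Gbp9 and -0.60 to 0.10 for Igtp. In NSG hosts it gave -0.29 to 0.007 for Gbp4 and -0.25 to 0.049 for Gbp9. The difference of the diet effects without tumours 17 and 19+23 was 0.24 for Gbp2, 0.28 for Gbp3, 0.52 for Gbp4, 0.17 for Gbp5, 0.12 for Gbp6, 0.067 for Gbp7, 0.28 for Gbp8, 0.26 for Gbp9 and 0.14 for Igtp; leaving out 1 tumour gave -0.79 to 0.16 for Gbp4, -0.51 to 0.01 for Gbp7, -0.55 to 0.094 for Gbp8 and -0.39 to 0.15 for Gbp9. The cause was not tested. No paired analysis was possible because each library number occurs once. Low counts limit Ifng, and 4 to 6 tumours per group limit every comparison.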
